A study of Mus musculus with 6 samples.

Results

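The genes described here encode the voltage-gated channels for potassium (Kv), sodium (Nav) and calcium (Cav), the other potassium channels, and their auxiliary subunits. They were chosen by name, as every row whose symbol starts with Kcn, with Scn and a digit, or with Cacn, leaving out the Kcnq1 antisense RNA Kcnq1ot1 and pseudogenes. This gave 134 of the 31641 genes in the table, of which 103 had enough counts to be tested. RNA was sequenced from E14, a mouse embryonic stem cell line, in 3 libraries labelled Nat10 WT without Dox (CON) and 3 labelled Nat10 KD with Dox (KD). Nat10 encodes the enzyme that places N4-acetylcytidine on RNA, and KD is its knockdown. Dox, doxycycline, was given to the KD libraries alone, so an effect of the drug and an effect of the knockdown cannot be told apart. The labels describe neither the knockdown construct nor whether the line is 1 clone, and they do not say that the libraries of a group came from separate cultures. The p-values then measure the spread between these libraries, which may be technical.

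Voltage-gated channels open when the membrane depolarises. Nav channels carry the upstroke of the action potential, Kv channels end it, and Cav channels let in the calcium that triggers secretion, contraction and gene expression. Inward rectifiers and the tandem-pore K2P leak channels hold the resting potential, and auxiliary subunits set how many pores reach the surface and how fast they open and close. These families are best known from neurons, muscle and endocrine cells, and an undifferentiated stem cell does not depend on firing.

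The 6 libraries held 33770755 to 39524273 counts. Nat10 had 146, 151 and 150 CPM (counts relative to library size) in CON and 26.2, 27.2 and 28.7 CPM in KD, and the groups did not overlap. The log2 fold change of Nat10 was -2.44 (SE 0.05), or 5.44-fold lower in KD. The 8 pluripotent stem cell markers, among them Pou5f1 and Nanog, were all detected and summed to 5838 to 5879 CPM in CON and 2109 to 2217 CPM in KD. All 8 fell. In bulk RNA, fewer cells of a type and less RNA per cell cannot be told apart.

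Channel genes were more often higher than lower in KD. By edgeR's quasi-likelihood F-test, adjusted over all 18019 genes tested and called at an adjusted p under 0.05, 40 of the 103 tested channel genes rose (38.8%), against a background of 32.2% of all tested genes. Another 18 fell (17.5%), against a background of 30.8%, and 45 did not pass. The median log2 fold change was 0.36 over the tested channel genes and 0.02 over all tested genes. Scaling libraries by their total count alone, without edgeR's TMM factors, moved the median of all genes to 0.25 and gave 49 channel genes higher and 15 lower, beside 46.0% and 19.6% of all genes. Every KD library was above every CON library in 43 of the 103 (background 34.4%) and below in 20 (background 32.8%). The 31 untested members had between 1 and 76 counts summed over the 6 libraries, with a median of 17.

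More than 2-fold rises were called for 22 members (21.4%, background 9.73%), and more than 4-fold rises for 6 (5.83%, background 2.34%). Those 6 were Kcnc1, Kcna5, Kcnk3, Kcne1, Kcne1l and Kcnh8. None would have passed the count filter on CON alone, so they entered the test through KD, where they are high. The filter lets in any gene through either group, so these shares are not support for a change particular to channel genes. Falls of more than 2-fold were called for 8 (7.77%, background 7.11%). Among them, Kcnc2, Cacna2d4 and Kcnk7 would not have passed the count filter on KD alone. They entered the test through CON, where they are high, so the same limit holds for their falls. Channel genes had few counts, with a median of 1.90 CPM against 15.4 CPM over all tested genes. Within ranges of mean level, the share with a called rise over 2-fold was closer to that of all genes below 10 CPM. It was 18.6% against 15.5% of all genes below 1 CPM (8 of 43 members), 26.2% against 18.4% from 1 to 10 CPM (11 of 42) and 16.7% against 3.82% at 10 CPM or more (3 of 18). At mean levels of 10 CPM or more, 10 of 18 channel genes rose (55.6%) and 5 fell (27.8%), beside 34.5% and 41.3% of all genes at that level. Between 1 and 10 CPM, 21 of 42 rose (50%) and 10 fell (23.8%), beside 39.1% and 21.9%. Below 1 CPM, 9 of 43 rose (20.9%) and 3 fell (6.98%), beside 16.6% and 11.8%. In each of these level ranges the share of rises was above that of all genes, by a margin that was smallest below 1 CPM.

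**Figure D1:**
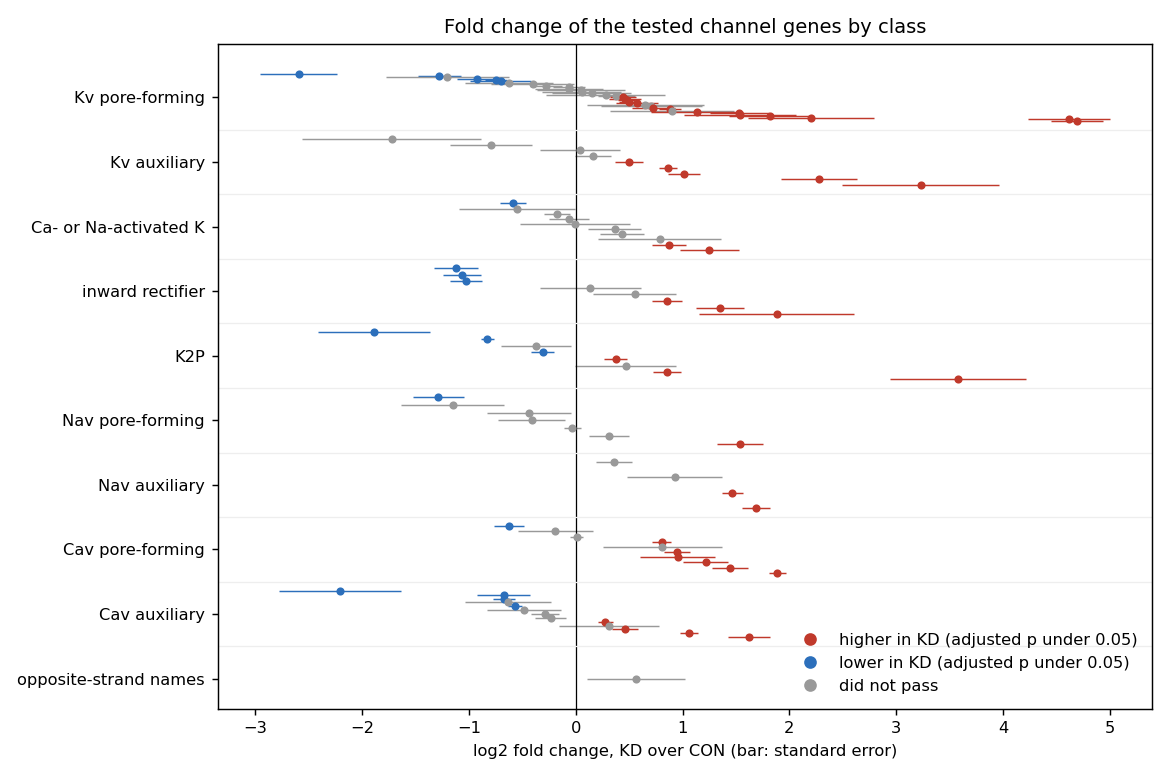
Log2 fold change of KD over CON on the horizontal axis for each of the 103 tested channel genes, grouped by channel class on the vertical axis. Points are fitted values, bars are standard errors, and colour gives the call. Kcnc1 (4.69) and Kcna5 (4.62) lie farthest to the right and Kcnc2 (-2.59) farthest to the left, all in the Kv pore-forming class.

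**Figure D2:**
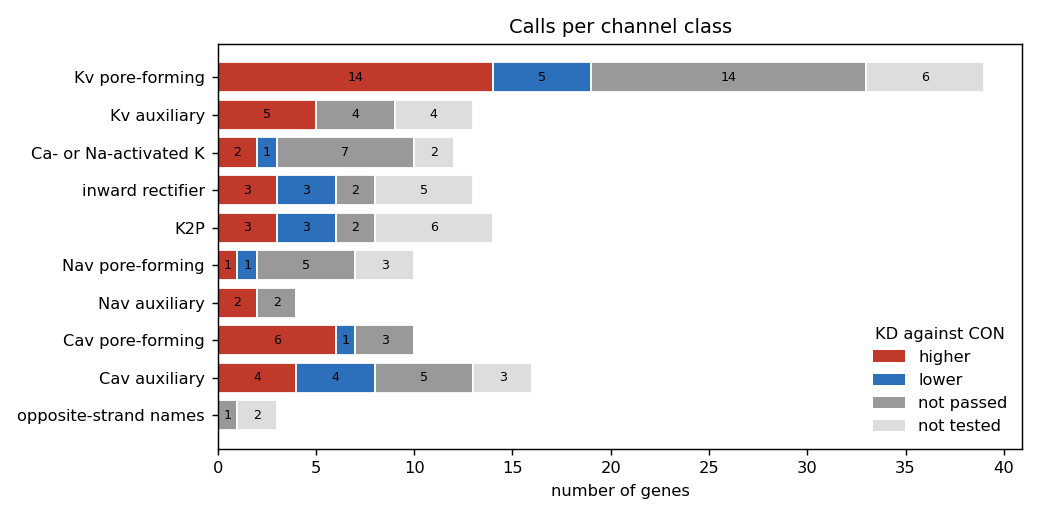
Number of channel genes on the horizontal axis in each class on the vertical axis, split into higher in KD, lower in KD, not passed and not tested. Kv pore-forming genes make up the longest bar, with 14 higher, 5 lower, 14 not passed and 6 not tested, and Kv auxiliary genes have 5 higher and 0 lower. Over all tested genes, 32.2% were higher and 30.8% lower.

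Among pore-forming Kv genes, 33 of 39 were tested. Of these, 14 rose (42.4%, background 32.2%) and 5 fell (15.2%, background 30.8%). The highest rise and the deepest fall of all tested channel genes lay in 1 subfamily, the Kcnc genes, whose channels open at strongly depolarised voltages and let fast-spiking neurons repolarise quickly. Kcnc1 entered the test through KD and Kcnc2 through CON, so this contrast is not support for a trait of the subfamily. The stretches just upstream of Kcnc1 and Kcnc2 are shown because these genes moved in opposite directions, and that of Kcna5 because its rise was close to that of Kcnc1. Each is the 150 bases before a RefSeq transcript start (GRCm38.p6), 5′ to 3′ on the gene's strand, with each CpG in capitals. For Kcnc2, which has 4 RefSeq starts, the one that matches the gene's start in GENCODE M21 was taken.
Kcnc1, chr7:46396318-46396467, plus strand: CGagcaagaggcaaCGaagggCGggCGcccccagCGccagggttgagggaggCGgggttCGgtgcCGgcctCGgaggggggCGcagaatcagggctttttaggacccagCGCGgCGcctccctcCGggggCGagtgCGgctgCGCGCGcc
Kcnc2, chr10:112270971-112271120, plus strand: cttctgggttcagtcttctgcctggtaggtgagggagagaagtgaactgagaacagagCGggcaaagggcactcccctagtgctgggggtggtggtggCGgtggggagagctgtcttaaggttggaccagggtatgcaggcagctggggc
Kcna5, chr6:126535556-126535705, minus strand: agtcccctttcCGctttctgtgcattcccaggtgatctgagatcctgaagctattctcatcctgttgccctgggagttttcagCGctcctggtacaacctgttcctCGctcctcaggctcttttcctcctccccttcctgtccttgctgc
The Kcnc1 stretch holds 19 CpG, that of Kcnc2 holds 2 and that of Kcna5 holds 3. That of Kcnc4, which rose and is not printed, holds 9. Over all 32851 windows of the same length the median is 4, with quartiles of 1 and 11, so Kcnc1 lies above the upper quartile and the others within the quartiles. A promoter entry was matched for 98 of the 134 channel genes (73.1%) and for 70.3% of all tested genes. CpG and GC content over the set were not tested.

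Kcnc1 (chr7:46396497-46438704, plus strand) was measured at 0.470, 0.330 and 0.123 CPM in CON and at 8.59, 8.22 and 7.46 CPM in KD. The groups lay far apart, from a raw count of 4 to 16 in CON to one of 273 to 360 in KD. Its mean rose from 0.307 ± 0.174 to 8.09 ± 0.574 CPM (SD, n = 3), a log2 fold change of 4.69 (SE 0.24, adjusted p = 2.5e-10 by edgeR), or 25.8-fold. Kcnc4, of the same subfamily, which carries a fast-inactivating current, rose 1.66-fold, from 2.14 ± 0.528 to 3.54 ± 0.631 CPM (SD, n = 3). Kcnc2 went the other way. It was measured at 1.53, 1.70 and 1.14 CPM in CON and at 0.310, 0.187 and 0.219 CPM in KD, with no overlap. Its log2 fold change was -2.59 (SE 0.36, adjusted p = 1.28e-05 by edgeR), or 6.04-fold lower in KD.

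Kcna5 encodes the ultra-rapid delayed rectifier of atrial and vascular muscle. It was measured at 0.0587, 0.055 and 0.123 CPM in CON and at 2.10, 2.06 and 1.80 CPM in KD. The CON values stand for raw counts of 2, 2 and 4, and the KD values for 88, 88 and 66. Its log2 fold change was 4.62 (SE 0.38, adjusted p = 4.69e-08 by edgeR), or 24.6-fold. Kcna1 and Kcna6, which lie beside Kcna5 on chromosome 6 and encode delayed rectifiers of axons, did not pass (log2 fold changes 0.90 and 0.71).

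The other rises in this class were smaller. Kcnd1, an A-type channel that opens below threshold, went from 14.7 ± 0.761 to 20.4 ± 0.810 CPM (SD, n = 3), a 1.39-fold rise. Kcns1, a silent subunit that forms channels only together with other Kv pores, rose 2.89-fold, from 0.650 to 1.88 CPM. Other rises were those of Kcng2, of Kcnh8, Kcnh5 and Kcnh1, and of Kcnq3, which contributes to the M current that damps repeated firing. Of these calls, that of Kcnq3 was lost in 7 of 14 alternative analyses, that of Kcnh1 in 4 and that of Kcnh5 in 3. A filter of at least 1 CPM in 3 libraries left Kcnq3 and Kcnh5 untested, and counts divided by 2 left Kcnh5 untested.

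The 5 falls among Kv pores were those of Kcnc2, of a pair of ERG genes, of a silent subunit and of Kcna7. Kcnh2, the ERG channel that repolarises the heart, was measured at 16.8, 18.7 and 18.6 CPM in CON and at 11.4, 11.8 and 9.02 CPM in KD. The groups did not overlap, and the log2 fold change was -0.75 (SE 0.10, adjusted p = 1.39e-05 by edgeR), or 1.68-fold lower. Its relative Kcnh6 was 1.89-fold lower (3.68 to 1.94 CPM). The other ERG gene, Kcnh7, missed the threshold, with 4.08 ± 0.0597 CPM in CON and 3.91 ± 0.567 CPM in KD (SD, n = 3). Kcns3, a silent subunit like Kcns1, was 2.42-fold lower (3.43 to 1.41 CPM), so these related silent subunits had opposite signs. Kcna7, a channel of muscle, was 1.63-fold lower at an adjusted p of 0.0432 by edgeR, and this call was lost in 6 of 14 alternative analyses.

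Of the Kv auxiliary genes, 9 of 13 were tested, 5 rose (55.6%, background 32.2%) and 0 fell (background 30.8%). At an unadjusted p under 0.05 edgeR gave 0 lower genes in this class, and DESeq2 with adjustment gave 0 too. Some alternatives did call a fall by edgeR's adjusted p, for Kcnab1 with no count filter (0.0426) and without KD replicate 1 (0.000366), and for Kcnip4 with counts divided by 2 (0.0489) and without KD replicate 3 (0.0336). Kcnip3, a calcium-binding protein that attaches to Kcnd pores and can also act in the nucleus, rose 1.82-fold. It was measured at 11.8, 12.5 and 12.2 CPM in CON and at 23.8, 21.9 and 20.6 CPM in KD, and the groups did not overlap. Kcnab2, a cytoplasmic beta subunit, rose 2.02-fold, from 4.49 to 9.06 CPM, while Kcnab3 did not pass (4.18 and 4.66 CPM). Kcnip2, the Kcnd partner of heart muscle, rose 1.41-fold.

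Both Kcne genes that were tested rose from near the detection limit. Neither would have passed the count filter on CON alone, so they entered the test through KD, where they are high. Their shared direction is thus not a result, and Kcne2, Kcne3 and Kcne4 were too low to be tested. Kcne1 encodes the single-span subunit that slows Kcnq1 in the heart. It had raw counts of 2, 0 and 2 in CON and 0.286, 0.561 and 0.328 CPM in KD, and a log2 fold change of 3.23 (SE 0.73, adjusted p = 0.00126 by edgeR). Without CON replicate 2, the library with no count, this became 2.64. Kcne1l, another member of that family, rose 4.85-fold, from 0.292 to 1.42 CPM. Kcnq1 itself did not pass (0.573 and 0.590 CPM).

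The class of potassium channels opened by calcium or sodium was set by symbol and also holds the Kcnmb auxiliary subunits and Kcnu1. In it, 10 of 12 genes were tested. Of these, 2 rose (20%, background 32.2%) and 1 fell (10%, background 30.8%). Kcnt1 and Kcnt2 encode the sodium-activated potassium channels, and they moved in opposite directions. Kcnt1 rose 1.83-fold, from 4.85 ± 1.23 to 8.88 ± 0.469 CPM (SD, n = 3), and Kcnt2 was 1.5-fold lower, from 6.60 ± 0.352 to 4.39 ± 0.234 CPM (SD, n = 3). Kcnn3, a small-conductance calcium-activated channel, rose 2.38-fold, from 0.856 to 2.06 CPM. Kcnn1, of the same family, and Kcnu1, the sperm channel, were among those that did not pass, at 6.91 and 6.13 CPM and at 2.95 and 2.82 CPM in CON and KD.

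Of the inward rectifiers, 8 of 13 were tested, and 3 rose and 3 fell (37.5% each), near the 32.2% and 30.8% of all tested genes. Kcnj4, a strong rectifier, rose 1.81-fold (5.24 to 9.45 CPM), and Kcnj14, of the same subfamily, rose 2.55-fold (1.04 to 2.65 CPM). Kcnj12, another strong rectifier, was measured at 2.47, 2.42 and 2.92 CPM in CON and at 1.07, 1.35 and 1.15 CPM in KD. It was 2.17-fold lower with no overlap, so the strong rectifiers did not share a direction. Kcnj10, the channel by which glia take up potassium, was 2.04-fold lower (4.67 to 2.29 CPM). Kcnj3, a G-protein-gated subunit, was 2.09-fold lower (3.37 to 1.61 CPM). Kcnj8, a pore of the ATP-sensitive channels, rose from 0.0810 to 0.298 CPM at an adjusted p of 0.0339 by edgeR. The call was lost in 7 of 14 alternative analyses. Kcnj8 was not tested in those with counts divided by 2 or a filter of at least 1 CPM in 3 libraries. Without CON replicate 2 its log2 fold change went from 1.88 to 1.28, and without CON replicate 3 it went to 3.24.

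Among the K2P leak channels, 8 of 14 were tested, and 3 rose and 3 fell, the same shares as for the inward rectifiers. Kcnk5, which opens at alkaline pH, had the highest level per length of them in CON (18.5 FPKM). It was measured at 68.4, 66.1 and 70.1 CPM in CON and at 38.5, 40.3 and 36.4 CPM in KD. The groups lay well apart, and the log2 fold change was -0.83 (SE 0.06, adjusted p = 8.49e-09 by edgeR), or 1.77-fold lower. Kcnk3, an acid-sensitive leak channel, had raw counts of 2, 0 and 4 in CON and of 41, 30 and 19 in KD. Its log2 fold change was 3.58 (SE 0.64, adjusted p = 0.000159 by edgeR), 2.98 without CON replicate 2 and 4.54 without CON replicate 3. Kcnk2, a channel opened by stretch, rose 1.81-fold (3.36 to 6.08 CPM). Kcnk1 rose 1.30-fold, a call lost without KD replicate 2 (adjusted p = 0.056 by edgeR). Kcnk7 was 3.71-fold lower, at 0.468 and 0.123 CPM, and Kcnk6 was 1.24-fold lower, a call lost in 2 alternative analyses.

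**Figure D3:**
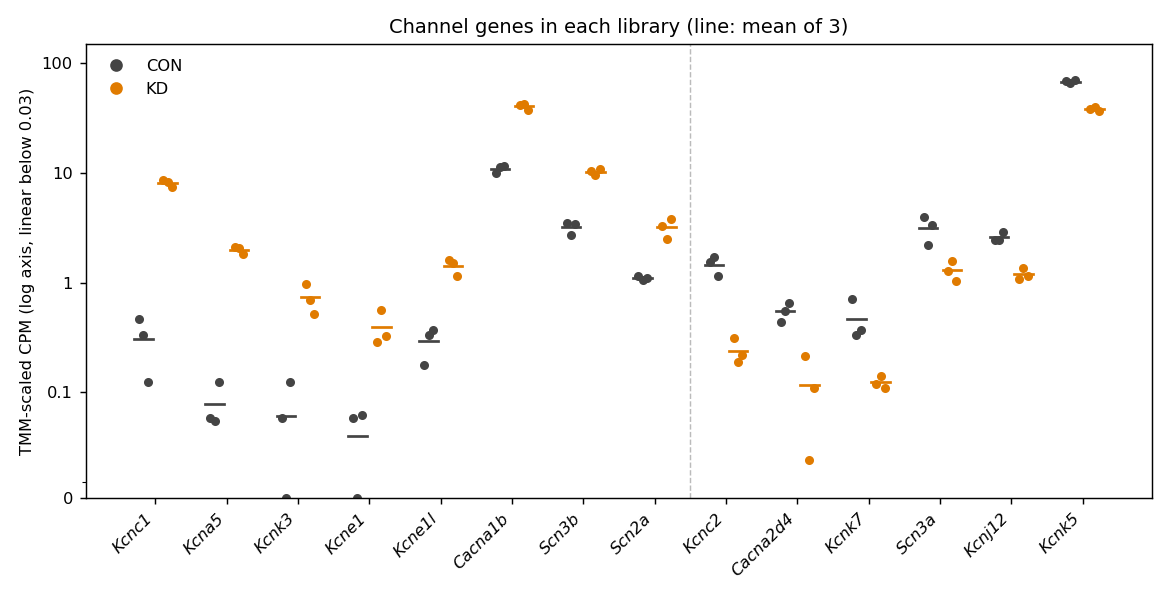
CPM of 14 channel genes in each library, on a log axis that is linear near 0. Points are libraries, short lines are the means of 3, CON is dark and KD is orange; genes left of the dashed line rose and genes right of it fell. Kcnc1 and Kcna5 have the widest gap between groups, and no gene shown has overlapping groups.

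Of the pore-forming Nav genes, 7 of 10 were tested, and 1 rose and 1 fell (14.3% each, background 32.2% and 30.8%). Scn2a, a brain channel of axon initial segments, was measured at 1.14, 1.04 and 1.11 CPM in CON and at 3.32, 2.48 and 3.83 CPM in KD. It rose 2.91-fold (log2 fold change 1.54, SE 0.22, adjusted p = 1.54e-05 by edgeR). Scn3a, the channel of the embryonic brain and the neighbour of Scn2a on chromosome 2, was 2.44-fold lower, from 3.17 ± 0.885 to 1.29 ± 0.264 CPM (SD, n = 3). Scn8a, the channel of nodes of Ranvier, had the highest level per length of the Nav pores (1.25 FPKM in CON). It missed the threshold, with 21.4 ± 1.15 CPM in CON and 21.0 ± 1.03 CPM in KD (SD, n = 3).

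Beta subunit genes encode proteins that anchor Nav pores and speed their gating. Among them, Scn3b was measured at 3.46, 2.69 and 3.41 CPM in CON and at 10.5, 9.48 and 10.9 CPM in KD. It rose 3.23-fold (log2 fold change 1.69, SE 0.13, adjusted p = 2.24e-08 by edgeR), and the groups did not overlap. Scn2b (3.05 and 3.93 CPM) and Scn4b (0.355 and 0.673 CPM) did not pass, and both passed as higher with total-count scaling.

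Cav pores had 6 rises (60%, background 32.2%) and 1 fall (10%, background 30.8%) among 10 genes, all tested. Cacna1b, the N-type channel of presynaptic terminals, was measured at 10.01, 11.3 and 11.5 CPM in CON and at 41.5, 42.2 and 37.8 CPM in KD. Its groups lay far apart, with a log2 fold change of 1.89 (SE 0.08, adjusted p = 2.69e-11 by edgeR), or 3.70-fold. Its close relative Cacna1a, the P/Q-type channel of the same terminals, did not pass, with 40.7 ± 2.06 CPM in CON and 41.0 ± 0.479 CPM in KD (SD, n = 3). Per length, Cacna1b went from 1.02 to 4.40 FPKM and Cacna1a from 3.05 to 3.60 FPKM, so the order of these levels turned. Cacna1e, the R-type channel, rose 1.94-fold at an adjusted p of 0.0273 by edgeR. The call was lost in 4 of 14 alternative analyses, and a filter of at least 1 CPM in 3 libraries left Cacna1e untested.

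Of the L-type pores, which couple depolarisation to contraction, secretion and transcription, 3 of 4 rose, beside 32.2% of all tested genes. Cacna1d rose 2.72-fold (2.28 to 6.24 CPM), Cacna1c 2.32-fold (1.12 to 2.60 CPM) and Cacna1s, the skeletal muscle pore, 1.93-fold (5.02 to 9.72 CPM). Cacna1f, the retinal pore, did not pass. The T-type pores, which open near the resting potential, differed in sign. Cacna1h rose 1.75-fold, from 20.7 ± 2.17 to 36.1 ± 3.84 CPM (SD, n = 3), and Cacna1g was 1.54-fold lower, from 8.22 ± 0.862 to 5.30 ± 0.924 CPM (SD, n = 3). Cacna1i did not pass.

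Of the Cav auxiliary genes, 13 of 16 were tested, and 4 rose and 4 fell (30.8% each), close to the 32.2% and 30.8% of all tested genes. Cacna2d2, an alpha2delta subunit that carries pores to the surface, was measured at 10.2, 9.65 and 9.68 CPM in CON and at 20.4, 20.9 and 20.3 CPM in KD. It rose 2.09-fold, whereas Cacna2d4, of the same family, was 4.61-fold lower from a low level (0.545 to 0.116 CPM). Cacna2d4 had raw counts of 9, 1 and 4 in KD and entered the test through CON, so this contrast is not a result about the family. Leaving out 1 library at a time moved the log2 fold change of Cacna2d4 from -2.20 to between -3.04 (without KD replicate 1) and -1.71. A filter of at least 1 CPM in 3 libraries and counts divided by 2 each left Cacna2d4 untested. Of the beta subunits, which bind the pore inside the cell, Cacnb3 rose 1.21-fold (66.6 to 80.7 CPM) and Cacnb1 was 1.59-fold lower (16.5 to 10.4 CPM).

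The Cacng genes include subunits of the muscle calcium channel and, in the larger part, proteins that carry AMPA-type glutamate receptors. Cacng7, of the latter kind, had the highest level per length of all channel genes in both groups. It was measured at 85.6, 81.9 and 90.1 CPM in CON and at 61.8, 60.1 and 51.8 CPM in KD, 1.48-fold lower with no overlap. Cacng5 rose 3.07-fold (1.20 to 3.70 CPM) and Cacng6 1.38-fold (7.31 to 10.1 CPM). Cacng4 was 1.60-fold lower, a call lost in 5 of 14 alternative analyses.

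Some neighbouring channel genes carried opposite calls, chosen here after their values were seen. Scn3a (chr2:65457118-65567627) fell and Scn2a (chr2:65620771-65767447) rose. Cacna1c (chr6:118587240-119196418) rose and Cacna2d4 (chr6:119236526-119352407), which entered the test through CON, fell. On chromosome 11, Cacng4 fell and Cacng5 rose, and on chromosome 7, Cacng7 fell, Cacng8 did not pass and Cacng6 rose. The median gene span was 53.5 kb for genes that rose, 45.2 kb for those that fell and 34.7 kb for those that did not pass.

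Compared per length, with the authors' FPKM values, few channel genes were abundant. In CON, Cacng7 (32.5 FPKM), Kcnk5 (18.5 FPKM) and Cacnb3 (15.3 FPKM) stood above 10 FPKM, and Kcnk1 reached 5.55 FPKM. In KD, Cacng7 had 25.6 FPKM, Cacnb3 21.8 FPKM and Kcnk5 12.2 FPKM, so Cacnb3 passed Kcnk5. At least 1 FPKM was reached by 23 of the 134 genes in CON and by 32 in KD, beside 12374 and 13077 of all 31641 genes. FPKM is scaled by library total, a scaling that moves the median of all genes upward in KD. Cacna1b moved from place 23 to place 9 in this order, and Scn3b from place 40 to place 19.

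**Figure D4:**
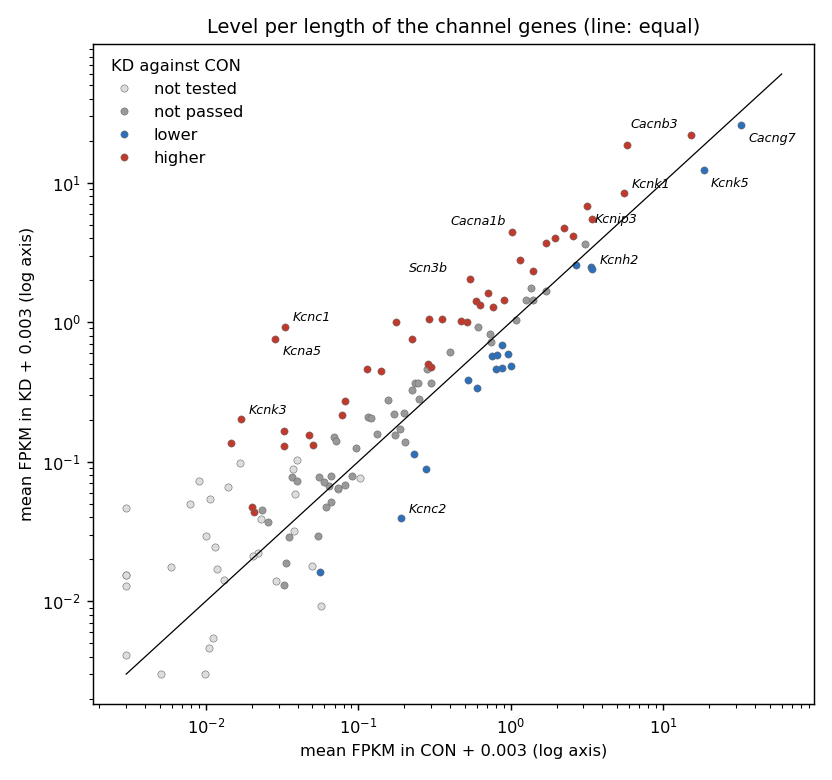
Mean FPKM of the 134 channel genes in CON (horizontal) and KD (vertical), both on log axes with 0.003 added, coloured by call, with a line where both are equal. FPKM is scaled by the library total and the calls by TMM, so genes near the line may carry a call on either side of it. Cacng7, Cacnb3 and Kcnk5 are the most abundant in CON, and Kcnc1 and Kcna5 lie far above the line.

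Partners of these channels were also measured, from a list of 44 genes for other voltage-sensing or leak channels and for proteins that bind, move or modulate the pores. Of 31 tested, 15 rose (48.4%, background 32.2%) and 5 fell (16.1%, background 30.8%). Their median log2 fold change was 0.49. Unc79 and Unc80, the large subunits that hold the sodium leak channel together, rose from 1.70 to 7.80 CPM and from 2.19 to 9.02 CPM. Their pore, Nalcn, did not pass (1.18 and 1.44 CPM). Hcn3, a pacemaker channel, rose from 6.33 to 19.7 CPM, and Rem2, a small GTPase that restrains Cav channels, from 0.581 to 4.07 CPM. Fgf12, which binds the tail of Nav pores, had raw counts of 2, 0 and 0 in CON and of 44, 40 and 34 in KD. The falls included Ank2, an ankyrin that anchors channels (41.5 to 20.4 CPM), and Nedd4l, a ubiquitin ligase that removes Nav channels from the membrane (65.9 to 37.4 CPM).

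Markers of cell types known for these channels moved too, and their part in the results above was not tested. Over all tested genes the background was 32.2% higher and 30.8% lower. The lists are short, so their counts of rises and falls are not read as a result about a cell type. Of 9 neuron markers measured, 5 rose (Map2, Snap25, Syp, Syt1 and Elavl3) and 3 fell (Tubb3, Stmn2 and Nefl). Their sum went from 156 to 157 CPM in CON to 91.4 to 101 CPM in KD. Most of the CON sum came from Stmn2 (94.6 to 21.8 CPM) and Tubb3 (37.2 to 5.64 CPM), so it does not give the direction of the list. Syp, for example, rose from 0.904 to 29.1 CPM. Heart or skeletal muscle markers had 3 rises among 6 tested, with sums of 19.7 to 21.7 CPM and 26.8 to 29.3 CPM. Myod1 was at 0 in all CON libraries and had raw counts of 2, 0 and 0 in KD, too few to be tested. Fibroblast markers had 3 rises and 1 fall among 4 tested, with sums of 24.0 to 28.2 CPM and 51.4 to 56.8 CPM. Glial markers had 2 falls among 4 tested, with sums of 45.7 to 47.6 CPM and 28.8 to 32.5 CPM. The pancreatic endocrine marker that could be tested, Neurod1, did not pass. Dcx, Ins1, Ins2, Iapp and Sst were not analysed here.

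Rest encodes a repressor that binds a long motif near many neuronal genes, channel genes among them. It was measured at 389, 385 and 382 CPM in CON and at 102, 96.2 and 105 CPM in KD, 3.82-fold lower with no overlap. No search of the promoters for its motif was made.

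The labels do not state whether counting used strand, and some channel genes share exons with a gene on the other strand. Among the called members, Cacna1d shares 589 exonic bases with Chdh, which also rose (2.21 to 5.13 CPM), so reads from these genes may not be told apart. Kcnj3 shares 1621 exonic bases with Gm26794 and Kcnk2 shares 604 with A430027H14Rik, neither of which was analysed here.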

How the data were processed

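Poly(A)-selected RNA of 6 libraries was sequenced. The authors deposited 1 table with a raw count per gene and library, per the file headers. The submitters' processing notes name FastQC 0.11.9, STAR 2.5.3a, featureCounts and the build mm10. Neither the annotation nor the handling of strand and of reads with several matches is stated in the labels. The deposited FPKM values, made by the authors, served only to order genes by level per length. The log2 fold change and the adjusted p-value that the authors deposited for their own comparison were not used.

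The counts were fitted with edgeR 4.0.16 (R 4.3.3). The filter filterByExpr, by group, left 18019 of 31641 genes. TMM factors were 0.922 to 0.926 in CON and 1.08 to 1.084 in KD. The test was edgeR's quasi-likelihood F-test with robust shrinkage and no replicate block, all p-values were corrected together by Benjamini-Hochberg, and the threshold was 0.05. The standard error is the log2 fold change over the square root of F. CPM uses TMM-scaled library sizes, and 1 count is worth 0.0234 to 0.0307 CPM. Of counts from 1 to 20, 70.0 to 71.7% were even, so a low count may come from fewer fragments and be less precise than it looks.

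Genes were named by class: up to 5 per class and direction with the smallest p, and up to 2 that did not pass with the highest CPM. The other genes named were chosen after their values were seen. Some genes that the rule names are not reported here, though they remain in the counts. The members and lists were chosen with earlier results of these data known. Positions are from GENCODE M21 (GRCm38) and promoter sequences from RefSeq (GRCm38.p6). Alternatives were another scaling, DESeq2 1.42.0, other count filters, no robust shrinkage, counts divided by 2, a replicate block and leaving out each library.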

Additional observations from a re-analysis of the deposited data

How the results depend on the processing

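Over 14 alternatives, the number of channel genes that rose stayed between 33 and 49 (40 as reported) and the number that fell between 15 and 20 (18 as reported). The lowest count of rises came with a filter of at least 1 CPM in 3 libraries, which tested only 64 channel genes. Leaving out 1 library gave 37 to 43 rises, 15 to 19 falls and a median log2 fold change of 0.24 to 0.39, lowest without KD replicate 1. KD replicate 3 stood apart from its group. Its counts differed from those of KD replicates 1 and 2 by a chi-square per gene of 16.2 and 12.0. For KD replicates 1 and 2 this was 3.09, and for pairs of CON libraries 2.73 to 5.46. Without KD replicate 3, 40 channel genes rose and 19 fell. With total-count scaling the median was 0.59, and Scn8a turned from -0.03 to 0.20 (adjusted p = 0.0328 by edgeR). That scaling moves all genes upward.

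Same-numbered libraries were not more alike than other pairs. Their deviations from the group mean correlated at -0.144 to 0.0474 over 14550 genes, and those of other pairs at -0.0994 to 0.182. With 3 libraries in a group these values depend on each other, so the check cannot exclude a shared culture or day. With the replicate block, 40 channel genes rose and 17 fell, and Kcna7 was lost (adjusted p = 0.057 by edgeR).

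Of the 58 calls, 48 passed in every alternative that tested them, and none was called in the opposite direction. The other 10 were lost in at least 1. Among these, Kcnk1 was lost without KD replicate 2. Kcnk6 was lost with total-count scaling and without CON replicate 2. With DESeq2, Kcna7, Kcnj8, Kcnq3, Kcnh1, Kcnh5, Cacna1e and Cacng4 were lost, and each was also lost without 2 or more of the libraries in turn. Their highest adjusted p was 0.193 (Kcna7), 0.132 (Kcnj8), 0.132 (Kcnq3), 0.111 (Kcnh1), 0.0816 (Kcnh5), 0.107 (Cacna1e) and 0.147 (Cacng4). For Kcne1, Kcnk3 and Kcnj8 the CON libraries held few counts, and the folds are imprecise.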
